A study of Mus musculus with 47 samples.

Results

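Organoids of APC min mice that carry chromosome 5 of the PWD strain on a C57BL/6 background (labelled CSS C57BL/6 chr5 PWD, here C5) were compared with APC min organoids on plain C57BL/6 (here B6), both cultured with 5-aza-cytidine (AZA). The comparison rests on 4 of the 47 libraries of the series, C5 replicates 3 and 4 against B6 replicates 1 and 2. The same strain comparison in the 4 control organoid libraries of the same replicate numbers shows which differences were also present without the drug. All 8 organoid libraries carry the APC min genotype, an allele of the Wnt-pathway tumour suppressor Apc, and come from mice labelled as 15 to 19 weeks old. The dose and duration of the drug, the tissue the cultures came from and the position along the gut are not given in the labels. The labels do not say whether replicates are different mice or cultures; p-values therefore reflect only how these samples vary, which may be technical.

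Organoids are epithelial cultures that hold stem cells and the lineages they give rise to, without most of the stroma of the intact gut. A consomic strain swaps 1 chromosome for that of another strain, so a strain difference on that chromosome can be local to the gene. A difference elsewhere can be reached through other genes or through residual donor sequence. Here the strains also differ in replicate number, so a difference between cultures cannot be told apart from a strain difference, and read assignment can add to it. 5-aza-cytidine is a cytidine analogue that is built into nucleic acids and, once in DNA, traps DNA methyltransferases, so that methylation is lost as cells divide. Promoter methylation keeps germline genes and many endogenous repeats silent, and their release can set off an interferon response through sensors of double-stranded RNA.

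The AZA libraries held 4389898 to 7322902 counts assigned to genes, within an organoid range of 4389898 to 8373764. C5 replicate 4 under AZA was the shallowest organoid library, with 63.5% of its total in the counting categories that hold reads given to no gene and 1.61% of its gene counts in the ribosomal precursor Rn45s, the highest of the 8 on both measures. The C5 pair under AZA was also the least alike of the 4 organoid pairs (Pearson r of log2 CPM 0.905 over genes, against 0.935 for the B6 pair under AZA and 0.945 and 0.959 for the control pairs). Marker genes showed epithelium in all 4 AZA libraries: the summed level of 10 epithelial markers was 6767 to 7439 TMM-normalised CPM (counts scaled to a common library size), against at most 10.5 CPM for fibroblast, 11.7 for endothelial, 23.9 for immune and 9.36 for smooth muscle markers. These sums hold only markers that passed the filter on low counts: 3 of 10 fibroblast, 4 of 8 endothelial, 4 of 12 immune and 4 of 8 smooth muscle markers. The markers left out had low counts that are not in the sums. In bulk RNA, fewer cells of a type and less RNA per cell cannot be told apart.

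Under AZA, 18 of 13395 genes tested were called between C5 and B6 at an adjusted p under 0.05 (edgeR's quasi-likelihood test, Benjamini-Hochberg over all genes; 0.134% of genes), 10 higher and 8 lower in C5. In control organoids 28 genes were called (0.209%), 17 higher and 11 lower. The 2 sets shared 16 genes, 9 higher and 7 lower in C5 in both conditions, which is 88.9% of the AZA calls and 57.1% of the control calls. Another 2 genes, Hjurp and Nipal1, were called under AZA alone, and 12 genes were called in control alone. No gene was called for a change of the strain difference itself between AZA and control (edgeR interaction term, 0 of 13395, 0%). An unadjusted p under 0.05 was found for 609 genes, and DESeq2 also called 0. Without a filter on low counts 34 were called. A fixed replicate block also gave calls, Bglap3 among them, as listed in the last section. A difference called in 1 condition is therefore described here as such, and is not shown to have vanished or appeared. These counts depended on single libraries: the AZA count was 171 without C5 replicate 3, 41 without B6 replicate 1 and 35 without C5 replicate 4, and the control count was 139 without C5 replicate 3 and 45 without C5 replicate 4. The count of changed differences was 26 and 7 without C5 AZA replicates 3 and 4, 23 and 6 without C5 control replicates 3 and 4, and 2 without B6 control replicate 1.

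Calls were concentrated on the swapped chromosome. Of the 861 genes tested on chromosome 5, 14 were called under AZA (1.63%), 7 higher and 7 lower in C5, against 4 of 12534 genes elsewhere (0.0319%). The control organoids had 19 calls on chromosome 5 (2.21%) and 9 elsewhere (0.0718%). The median size of the log2 difference under AZA was 0.377 on chromosome 5 and 0.269 over all other genes, and it was lower than on chromosome 5 on each of the other chromosomes. Across genes, the AZA difference and the control difference had a Pearson r of 0.447 (Spearman's rho 0.408) over the 861 genes of chromosome 5 and of 0.044 (rho 0.055) over the other 12534. The signs matched for 64.9% of the chromosome 5 genes and for 51.6% of the others. These values are across genes, which are not independent replicates, and both differences come from libraries with the same replicate numbers. Reads were aligned to mm10, a C57BL/6 reference, so PWD reads of chromosome 5 can be counted less completely; the part this had in single genes was not tested.

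**Figure D1:**
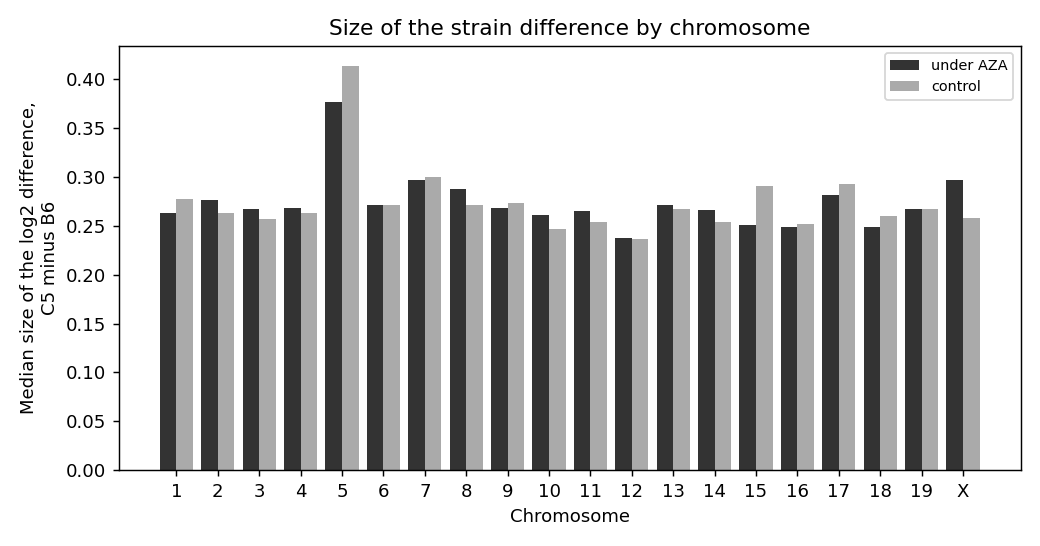
Median size of the log2 difference between C5 and B6 organoids (vertical axis) over the genes tested on each chromosome (horizontal axis), under AZA (dark bars) and in control (light bars). Chromosome 5 stands at 0.377 under AZA and 0.413 in control, above every other chromosome shown.

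**Figure D2:**
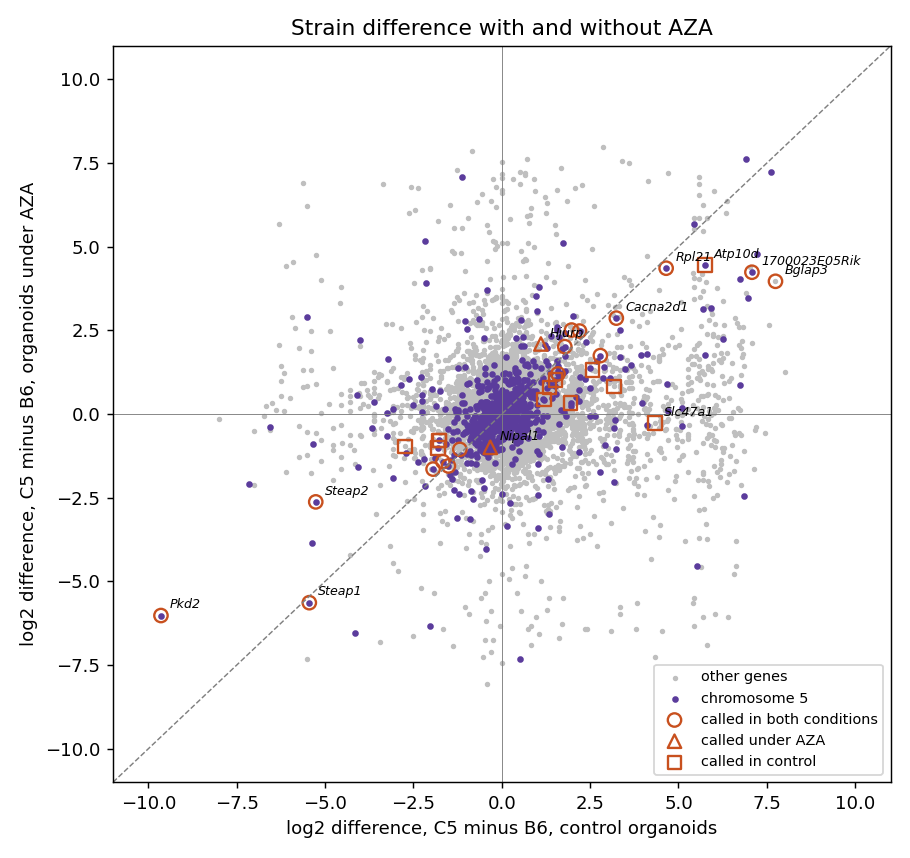
Fitted log2 difference, C5 minus B6, of each of 13395 genes in control organoids (horizontal axis) and under AZA (vertical axis), with chromosome 5 genes in purple and open orange symbols for called genes. The 16 genes called in both conditions lie in the lower left or the upper right part, most near the dashed line of equal difference; genes with no counts in 1 group form the loose points at large values.

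Promoter sequences are shown for 5 genes chosen by their calls. Hjurp and Nipal1 were called under AZA alone, and Bglap3 had the smallest p under AZA and lies outside chromosome 5. Steap1 and Steap2 are neighbours on chromosome 5 that were both lower in C5. A link between these sequences and the differences was not tested. Each is the 250 bases before the outermost start that the RefSeq promoter table lists for the gene, read 5′ to 3′ on the gene's strand from the GRCm38.p6 reference, with CG dinucleotides, the sites of DNA methylation, in capitals. The windows are chr1:88277580-88277829 for Hjurp (minus strand), chr5:72647546-72647795 for Nipal1 (plus strand), chr3:88372742-88372991 for Bglap3 (minus strand), chr5:5749318-5749567 for Steap1 (minus strand) and chr5:5694569-5694818 for Steap2 (minus strand). The annotated gene spans of Hjurp and Steap2 reach beyond that start, so their windows lie partly inside the gene. The reference is C57BL/6J, so these letters are those of B6 and not of the PWD chromosome.
Hjurp: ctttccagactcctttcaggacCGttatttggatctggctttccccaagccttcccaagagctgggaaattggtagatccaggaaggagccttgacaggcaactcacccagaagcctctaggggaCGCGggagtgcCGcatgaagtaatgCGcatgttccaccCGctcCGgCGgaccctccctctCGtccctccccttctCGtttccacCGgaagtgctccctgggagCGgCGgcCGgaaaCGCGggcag
Nipal1: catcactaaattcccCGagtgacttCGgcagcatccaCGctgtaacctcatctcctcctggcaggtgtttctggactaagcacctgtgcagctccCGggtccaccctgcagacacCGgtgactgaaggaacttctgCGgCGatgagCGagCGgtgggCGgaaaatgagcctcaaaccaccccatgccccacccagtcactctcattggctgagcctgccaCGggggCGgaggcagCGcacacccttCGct
Bglap3: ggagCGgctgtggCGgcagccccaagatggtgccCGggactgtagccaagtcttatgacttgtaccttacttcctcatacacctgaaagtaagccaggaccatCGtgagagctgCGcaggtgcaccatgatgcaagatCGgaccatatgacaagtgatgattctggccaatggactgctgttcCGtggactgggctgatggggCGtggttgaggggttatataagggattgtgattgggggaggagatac
Steap1: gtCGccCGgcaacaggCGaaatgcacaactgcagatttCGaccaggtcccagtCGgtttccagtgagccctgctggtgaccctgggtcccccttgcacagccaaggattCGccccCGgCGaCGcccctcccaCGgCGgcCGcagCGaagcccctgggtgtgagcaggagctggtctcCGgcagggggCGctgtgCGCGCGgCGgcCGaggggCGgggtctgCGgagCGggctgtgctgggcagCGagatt
Steap2: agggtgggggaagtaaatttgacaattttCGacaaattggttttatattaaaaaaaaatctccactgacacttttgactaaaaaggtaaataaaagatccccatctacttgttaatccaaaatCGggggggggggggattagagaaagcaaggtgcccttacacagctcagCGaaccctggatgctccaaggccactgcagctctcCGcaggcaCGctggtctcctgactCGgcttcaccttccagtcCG

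The motif searched was CG, which reads the same on both strands. The 250 bases held 16 CG for Hjurp, 14 for Nipal1, 8 for Bglap3, 24 for Steap1 and 7 for Steap2. Bglap3 has 2 further RefSeq starts, with 6 and 5 CG before them, and Steap2 has 2 further starts, with 10 and 33. Over the 13474 windows of 10609 tested genes found in the RefSeq promoter table, 98.4% held a CG and the median was 15. The 16 of 18 AZA-called genes in that table had 22 windows with a median of 7.5. Because only 79.2% of the tested genes have a window there, the set was not compared with all genes.

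The gene with the smallest p under AZA was Bglap3, a member of the osteocalcin gene family on chromosome 3 (chr3:88368616-88372741). Its level was 38.0 and 41.5 CPM in the B6 AZA libraries and 718 and 525 CPM in the C5 AZA libraries. In control organoids it was 0.144 and 0.145 CPM in B6 and 45.8 and 25.3 CPM in C5. Both C5 libraries lay above both B6 libraries in each condition, each strain was higher under AZA than in its own controls, and B6 under AZA stood near the control level of C5. The log2 difference was 3.97 ± 0.26 (SE) under AZA (adjusted p = 3.3e-06, edgeR). In control, where B6 had 2 counts in all, the ratio of pooled counts was 231 (exact 95% counting interval 63.7 to 1916). The change of the difference was −3.78 ± 0.74 on the log2 scale and was not called (edgeR, adjusted p = 0.918). Bglap, Bglap2 and Bglap3 are near-identical copies, so the assignment of reads among them is uncertain.

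3 other genes outside chromosome 5 were called under AZA. Map4, a microtubule-associated protein gene on chromosome 9, was at 17.8 and 12.3 CPM in B6 and 103 and 67.8 CPM in C5, a log2 difference of 2.51 ± 0.30 (adjusted p = 0.00101, edgeR). Ide, the insulin-degrading enzyme on chromosome 19, was at 224 and 220 CPM in B6 and 112 and 101 CPM in C5, a difference of −1.05 ± 0.16 (adjusted p = 0.0136, edgeR; 0.118 in the fit of the 4 AZA libraries alone). For both genes the groups did not overlap in either condition, and the control differences were called too, at 1.98 and −1.19. Hjurp, the chaperone that loads the centromeric histone CENP-A, lies on chromosome 1 (chr1:88258856-88277644) and was at 17.1 and 16.4 CPM in B6 against 63.5 and 80.1 CPM in C5. Its difference under AZA was 2.09 ± 0.26 (adjusted p = 0.00154, edgeR), and it passed the threshold in each of the 12 other settings tried. In control organoids Hjurp was at 33.2 and 36.4 CPM in B6 and at 63.5 and 86.2 CPM in C5, again without overlap, but the difference of 1.11 ± 0.25 was not called (adjusted p = 0.163). C5 thus had similar Hjurp levels in both conditions, while the B6 libraries under AZA had the lowest levels of the 8. The change of the difference, 0.99 ± 0.36, was not called (edgeR, adjusted p = 0.999).

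Nipal1, which encodes a magnesium transporter and lies on chromosome 5 (chr5:72647796-72671078), was the other gene called under AZA alone. It stood at 219.5 and 238 CPM in B6 and 110.4 and 120 CPM in C5 under AZA, against 110.0 and 110.6 CPM in B6 and 85.4 and 90.8 CPM in C5 in control. The B6 libraries under AZA were the 2 highest of the 8. Its difference was −0.99 ± 0.17 under AZA (adjusted p = 0.0261, edgeR) and −0.32 ± 0.17 in control (adjusted p = 0.876), with a change of −0.67 ± 0.24 that was not called (adjusted p = 0.999). The AZA call was lost in a fit of the 4 AZA libraries alone and without B6 replicate 2, with an adjusted p of up to 0.234.

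**Figure D3:**
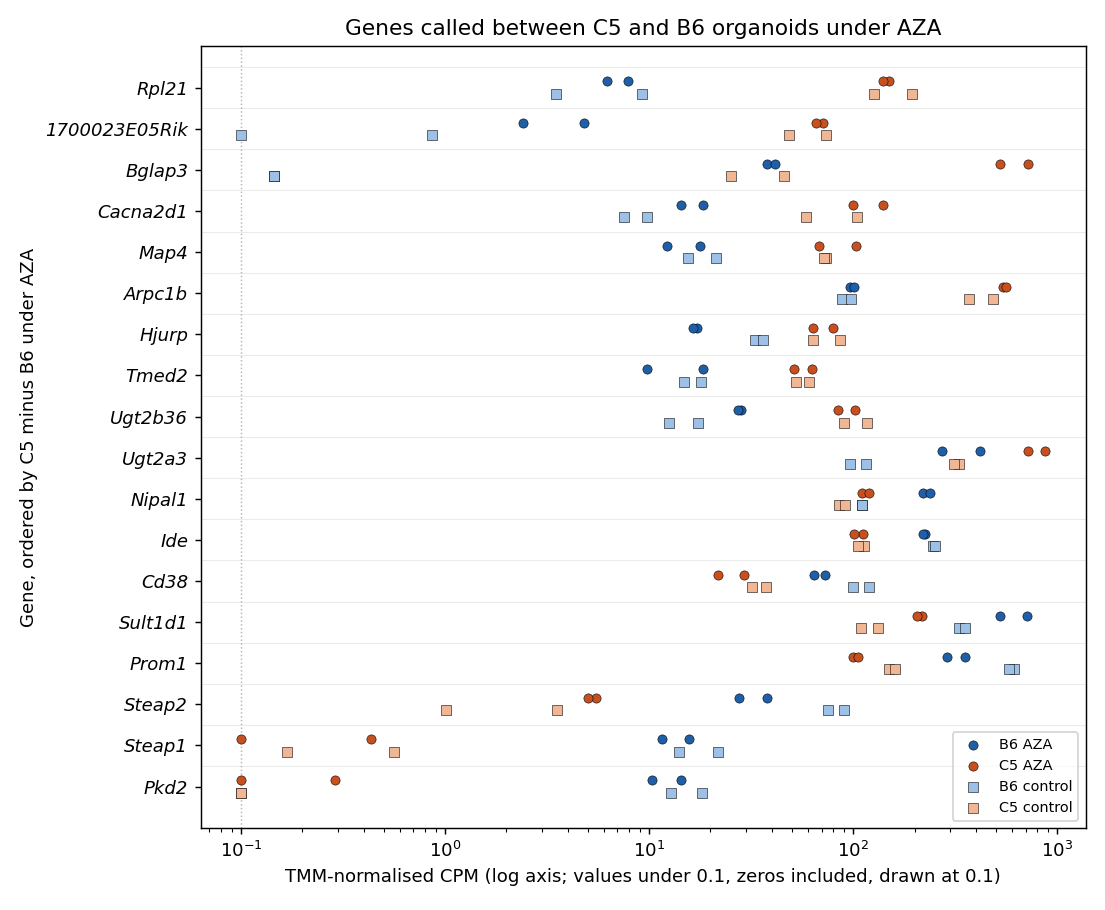
TMM-normalised CPM on a log axis (horizontal) of the 18 genes called under AZA (vertical axis, ordered by their difference under AZA), 1 point per library, with circles for AZA, squares for control, blue for B6 and orange for C5. For each gene the C5 and B6 points of the same condition are separate; Bglap3 shows the shift of both strains between control (0.144 to 45.8 CPM) and AZA (38.0 to 718 CPM).

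Among the called chromosome 5 genes that were higher in C5, the difference was largest for Rpl21, a ribosomal protein gene, at 7.88 and 6.22 CPM in B6 and 150.2 and 140 CPM in C5 under AZA (log2 difference 4.36 ± 0.36, adjusted p = 2.3e-05, edgeR). Rpl21 has processed copies elsewhere in the genome, so its read assignment is uncertain. 1700023E05Rik, an uncharacterised gene, was at 4.80 and 2.42 CPM in B6 and 71.1 and 65.7 CPM in C5 (4.24 ± 0.48). In control it was at 0.866 and 0 CPM in B6 and 48.7 and 73.8 CPM in C5, so that under AZA the B6 libraries were higher than their controls while still far under C5. Cacna2d1, an auxiliary subunit of voltage-gated calcium channels, was at 14.4 and 18.5 CPM in B6 and 99.8 and 141 CPM in C5 (2.87 ± 0.32).

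Arpc1b, a subunit of the Arp2/3 complex that nucleates branched actin, was at 96.8 and 101 CPM in B6 and 545 and 559 CPM in C5 (2.48 ± 0.18, adjusted p = 5.3e-06, edgeR). Its control levels, 88.6 and 97.5 CPM in B6 and 486.5 and 370.3 CPM in C5, gave a difference of 2.20. Tmed2, a cargo receptor of the early secretory pathway, was at 9.76 and 18.5 CPM in B6 and 51.4 and 63.0 CPM in C5 (2.02 ± 0.33, adjusted p = 0.0177). The Tmed2 call was lost without B6 replicate 1 and in a fit of the 4 AZA libraries alone, with an adjusted p of up to 0.123. For each of these 5 genes the C5 libraries were above the B6 libraries in both conditions.

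Lower in C5 were 2 neighbouring genes of the Steap metalloreductase family, Steap1 (chr5:5736322-5749317) and Steap2 (chr5:5664829-5694649). Steap1 was at 15.8 and 11.6 CPM in B6 and 0.435 and 0 CPM in C5 under AZA, 159 against 3 counts, a ratio of 51.4 (95% counting interval 17.3 to 252; adjusted p = 0.0151, edgeR). Steap2 was at 37.9 and 27.5 CPM in B6 and 5.51 and 5.02 CPM in C5 (log2 difference −2.62 ± 0.42, adjusted p = 0.0157). In control Steap2 was at 75.6 and 90.3 CPM in B6 and 3.54 and 1.02 CPM in C5, a difference of −5.26 ± 0.46. The B6 libraries under AZA were thus lower than the B6 controls and the C5 libraries under AZA higher than the C5 controls, and the change of 2.64 ± 0.60 had an unadjusted p of 0.000564 and was not called (adjusted p = 0.999). Both calls were lost, among other settings, in the fit of the 4 AZA libraries alone (adjusted p = 0.123 and 0.0747, edgeR).

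Pkd2 (chr5:104453982-104505819), which encodes the cation channel polycystin-2, was at 14.4 and 10.4 CPM in B6 and 0.290 and 0 CPM in C5 under AZA, 144 against 2 counts. The ratio was 69.9 (95% counting interval 19.0 to 582; adjusted p = 0.0177, edgeR). In control C5 had no count of Pkd2 against 214 in B6, at least 76.5-fold lower against a floor of 3 counts over the group. The Pkd2 call under AZA was lost, among other settings, in the fit of the 4 AZA libraries alone (adjusted p = 0.123, edgeR).

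Prom1 and Cd38, which lie within the same stretch of chromosome 5 (chr5:43993621-44102047 and chr5:43868809-43912374), were both lower in C5. Prom1, a membrane protein of intestinal stem and progenitor cells, was at 288 and 355 CPM in B6 and 100.1 and 106 CPM in C5 (−1.64 ± 0.17, adjusted p = 0.00026, edgeR), and at −1.94 in control. Cd38, an NAD-consuming ectoenzyme, was at 64.4 and 72.7 CPM in B6 and 29.3 and 21.7 CPM in C5 (−1.42 ± 0.24, adjusted p = 0.0261). The Cd38 call was lost, among other settings, without B6 replicate 2 (adjusted p = 0.0881), without C5 replicate 4 (adjusted p = 0.0718) and in the fit of the 4 AZA libraries alone (adjusted p = 0.17, edgeR).

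The genes for UDP-glucuronosyltransferases (Ugt2) and cytosolic sulfotransferases (Sult1), enzymes that conjugate drugs, steroids and bile acids, sit together on chromosome 5. Of the 9 tested members of both clusters, 2 were called higher and 1 lower in C5 under AZA, beside 1.63% of all chromosome 5 genes called. Their median log2 difference was −0.17 against 0.01 over all genes tested. Ugt2a3 was at 418 and 273 CPM in B6 and 716 and 874.5 CPM in C5 (1.20 ± 0.20, adjusted p = 0.0242, edgeR). Ugt2b36 was at 28.1 and 27.3 CPM in B6 and 102 and 84.0 CPM in C5 (1.75 ± 0.25, adjusted p = 0.00615). Sult1d1 went the other way, at 712 and 527 CPM in B6 and 216 and 207 CPM in C5 (−1.55 ± 0.18, adjusted p = 0.000852). The Ugt2a3 call was lost without B6 replicate 2 and in the fit of the 4 AZA libraries alone (adjusted p up to 0.182). Ugt2b34, the most abundant member, was at 3041 and 3084 CPM in B6 and 2414 and 2355 CPM in C5 and was not called (−0.36 ± 0.15, adjusted p = 0.788). Ugt2b5 was called in control alone: it stood at 18.5 and 14.6 CPM in B6 and 66.9 and 61.1 CPM in C5 there, and at 41.1 and 65.5 CPM in B6 and 79.8 and 54.1 CPM in C5 under AZA, where the groups overlapped. Its difference was 1.95 ± 0.30 in control and 0.33 ± 0.28 under AZA, and the change of −1.62 ± 0.40 was not called (unadjusted p = 0.0012, adjusted p = 0.999). Ugt2b genes resemble each other closely, so reads may be shared among them. The Cyp3a cluster of chromosome 5, cytochromes that oxidise drugs, had 0 of 7 tested members called (1.63% over the chromosome). Cyp3a11 was at 7076 and 4822 CPM in B6 and 3984 and 5051 CPM in C5. The groups of Cyp3a11 overlapped (−0.40 ± 0.23, adjusted p = 0.932).

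Among the 16 genes called in both conditions, the difference was smaller under AZA in 11 and larger in 5, and its median size was 2.50 on the log2 scale in both conditions. All 12 genes called in control alone had a smaller difference under AZA than in control, with a median size of 0.81 against 1.88, and 11 of the 12 kept their sign. Genes chosen for passing in control and missing the threshold under AZA will mostly be smaller under AZA by that choice, so nothing is read from this. They were Atp10d, Commd8, Fam185a, Hmgb1, Hsd17b11 and Ugt2b5 on chromosome 5 and Gm6329, Lars2, Olfm4, Podxl, Slc47a1 and Ube2l6 elsewhere. Their groups did not overlap under AZA in 11 of 12 cases, in 10 of them in the same direction as in control, against 33.4% of all genes tested (4473 of 13395, either direction).

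Slc47a1, a transporter that expels organic cations and drugs, was the exception in sign and had the smallest interaction p of all genes. It was at 0.144 and 0 CPM in B6 and 2.02 and 1.69 CPM in C5 in control, and at 75.7 and 76.0 CPM in B6 and 68.4 and 57.8 CPM in C5 under AZA. All 4 AZA libraries were thus far above all 4 control libraries, and the order of the strains differed between conditions. The control ratio rested on 27 counts in C5 against 1 in B6 (25.2, 95% counting interval 4.15 to 1031). The change of −4.60 ± 0.82 had an unadjusted p of 5.1e-05 and an adjusted p of 0.688 (edgeR interaction term), so it was not called.

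Atp10d, annotated as a transcribed pseudogene of a lipid flippase in the C57BL/6J reference, was at 1.20 and 0.518 CPM in B6 and 10.4 and 28.3 CPM in C5 under AZA (4.46 ± 0.90, adjusted p = 0.104, edgeR) and was called in control, on 2 counts in B6. Its AZA difference did pass in 4 of 12 other settings. Olfm4, a secreted marker of intestinal stem cells on chromosome 14, was at 184 and 130.2 CPM in B6 and 218 and 567 CPM in C5 under AZA and was not called (1.32 ± 0.46, adjusted p = 0.656). Its AZA difference was 0.47 without C5 replicate 4 and 1.85 without C5 replicate 3, and it passed in the latter setting and without a filter on low counts (adjusted p from 3.36e-08 to 0.99 over 12 settings, edgeR, limma or DESeq2). Within C5, replicate 4 was the higher library both under AZA and in control (362 CPM against 112 CPM). Ube2l6, the conjugating enzyme for the ubiquitin-like modifier ISG15, was lower in C5 in control (9.38 and 8.58 CPM against 2.02 and 0.790 CPM) and stood at 44.4 and 54.6 CPM in B6 against 25.8 and 24.9 CPM in C5 under AZA (−0.96 ± 0.36, adjusted p = 0.744).

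The other genes with the smallest interaction p, none called, differed in their patterns. Mbl2, a lectin of innate immunity, was at 0 CPM in both B6 controls, at 1.35 and 1.24 CPM in the C5 controls and at 28.4 to 46.8 CPM in all AZA libraries, where the strains overlapped. Xaf1, Irf9 and Gm14446, which include genes induced by interferon, were at 0 to 20.4 CPM in control and were higher in both B6 AZA libraries than in both C5 AZA libraries. Irf9, a subunit of the interferon-activated ISGF3 complex, stood at 82.4 and 89.1 CPM in B6 against 55.6 and 37.0 CPM in C5. In the other direction Cdkn1a, the p53-induced cell cycle inhibitor, was at 72.6 and 85.5 CPM in B6 controls and 41.9 and 18.5 CPM in C5 controls, and at 174 and 187 CPM in B6 and 238 and 189 CPM in C5 under AZA. C530008M17Rik on chromosome 5 was at 73.8 and 79.3 CPM in B6 and 135 and 141 CPM in C5 under AZA, above the B6 libraries, and below them in control. The change was negative for the long noncoding 1600023N17Rik of the same chromosome (−4.34 on the log2 scale). It was at 14.4 and 19.7 CPM in B6 and 3.19 and 0.913 CPM in C5 under AZA, and at 1.01 to 3.54 CPM in all controls. Gm6329, a long noncoding RNA on chromosome 8, also had a negative change (−2.35). It was at 15.9 and 28.0 CPM in B6 and 41.0 and 36.8 CPM in C5 under AZA and at 3.90 and 1.89 against 30.5 and 22.4 CPM in control.

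Interferon-response genes had lower values in C5 than in B6 under AZA across nearly the whole list, although 0 of 31 was called. Of 31 tested members, 30 had a negative difference, and in 27 both C5 libraries lay below both B6 libraries, against 33.4% of all genes with groups that do not overlap in either direction. The median log2 difference was −1.70 under AZA and −0.05 in control, beside 0.01 and 0.04 over all genes tested. An unadjusted p under 0.05 was found for 22 of 31, against 796 of all 13395 genes, and the lowest adjusted p was 0.273 (edgeR). Genes of 1 list can vary together and are not independent replicates. Such counts can therefore repeat 1 ordering of the same 4 libraries, here and in the lists below. The summed level of the list was 281 to 334 CPM in the 4 control libraries of both strains, 2035 and 3096 CPM in the B6 AZA libraries and 1523 and 692 CPM in the C5 AZA libraries. Every AZA library was therefore above every control library, and C5 replicate 4 was the lowest of the 4 AZA libraries.

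Ifih1, the MDA5 sensor of long double-stranded RNA, was at 258 and 376 CPM in B6 and 232 and 107 CPM in C5 (−0.90 ± 0.28, adjusted p = 0.509, edgeR). Eif2ak2, the kinase PKR, was at 233 and 287 CPM in B6 and 222 and 117 CPM in C5 (−0.61 ± 0.24, adjusted p = 0.776). In both genes C5 replicate 3 was close to the lower B6 library and C5 replicate 4 was far below.

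Oas3, a synthetase that activates RNase L and lies on chromosome 5, had no count in any control library and was at 24.2 and 31.1 CPM in B6 and 6.08 and 4.34 CPM in C5 under AZA (−2.39 ± 0.59, adjusted p = 0.289, edgeR). Oasl2, of the same chromosome, was at 176 and 257.5 CPM in B6 and 72.9 and 18.7 CPM in C5 (−2.22 ± 0.60, adjusted p = 0.361). Gbp3, a guanylate-binding protein gene on chromosome 3, was at 13.7 and 23.5 CPM in B6 and 1.74 and 0.913 CPM in C5 (−3.76 ± 0.91, adjusted p = 0.273). The exception in sign was Oasl1, at 47.1 and 55.1 CPM in B6 and 94.5 and 25.6 CPM in C5. Of the 9 tested Oas and Gbp genes on chromosome 5 itself, 8 had a negative difference, with a median of −2.39. Without C5 replicate 4 the median of the 31 genes was −1.20 with 29 of 31 negative, without C5 replicate 3 it was −2.29 with 30 of 31, and with either B6 library left out it was −2.08 and −1.26. Depth, the summary categories and Rn45s also set C5 replicate 4 apart, as given above, and their part in the size of the group difference was not tested. The 4 tested immune cell markers of 12 summed to 11.6 and 8.98 CPM in B6 and 23.9 and 21.9 CPM in C5, so they were higher where the interferon genes were lower, and their part in the result was not tested. In tissue 25 of the 31 genes had a positive difference, 7 were called higher and 1, Oas1a, lower in C5, against 18.6% of all genes called in either direction; Ifih1 was higher there (0.98 on the log2 scale, adjusted p = 8.4e-05) and so was Oas3 (1.53, adjusted p = 1.5e-05; edgeR, mean of 3 tissues).

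**Figure D4:**
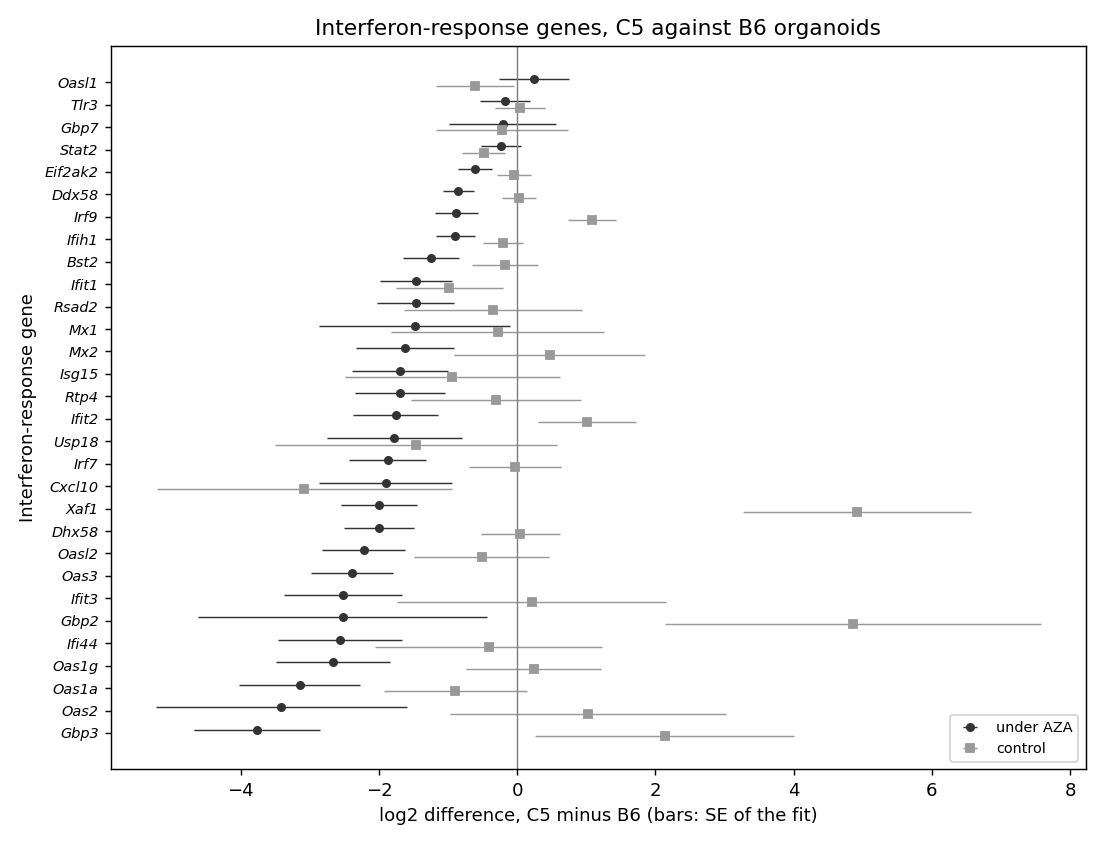
Fitted log2 difference between C5 and B6 organoids with its SE (horizontal axis) for 30 of the 31 interferon-response genes tested (vertical axis), under AZA (dark circles) and in control (grey squares; Oas3 has no control point because it had no counts there). All AZA points but that of Oasl1 lie below 0, while the control points scatter around 0 with wide errors at low counts; over all 31 genes the medians were −1.70 and −0.05.

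Genes of MHC class I presentation, which interferon also induces, had 0 of 16 called, 14 negative and a median of −0.43 (control 0.15). B2m, the invariant light chain of MHC class I, was at 623 and 460 CPM in B6 and 443 and 384 CPM in C5 (−0.39 ± 0.20, adjusted p = 0.899, edgeR), and H2-K1, a classical heavy chain, at 739 and 661 CPM against 558 and 570.2 CPM (−0.31 ± 0.16, adjusted p = 0.891). Both C5 libraries were below both B6 libraries for each gene, and neither difference was called. The 16 tested of 26 germline genes silenced by methylation summed to 144 and 138 CPM in B6 and 130 and 109 CPM in C5 under AZA, against 11.8 to 28.7 CPM in the controls. None of the 16 tested germline genes was called between strains, 9 were positive and 7 negative, and the median was 0.10.

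All 11 tested goblet cell genes had a negative difference under AZA, 7 of them without overlap (33.4% over all genes, either direction), with 0 called and a median of −0.48 (control 0.03). Tff3, a peptide that protects the mucus layer, was at 2137 and 2016 CPM in B6 and 1475 and 1071 CPM in C5 (−0.71 ± 0.19, adjusted p = 0.331, edgeR). Fcgbp, an abundant member of the list, differed less, at 2167 and 2591 CPM in B6 and 2069 and 1995 CPM in C5. Its difference was −0.23 ± 0.18 (adjusted p = 0.974, edgeR), and 0.14 in control. Spink4, a goblet cell protease inhibitor, was at 846 and 791 CPM in B6 and 591 and 472 CPM in C5 (−0.62 ± 0.18, adjusted p = 0.406). Muc2, the gel-forming mucin, was at 59.1 and 58.0 CPM in B6 and 35.1 and 40.2 CPM in C5 (−0.64 ± 0.29, adjusted p = 0.829). In control the strains were mixed for these genes, with 7 positive and 4 negative.

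Cell cycle genes had 0 of 24 called, with 17 positive and a median of 0.22 (control 0.00). The groups did not overlap for 10 that were higher and 0 that were lower in C5, beside 33.4% of all genes in either direction. Mki67, a marker of dividing cells, was at 443 and 492 CPM in B6 and 591 and 685 CPM in C5 (0.45 ± 0.19, adjusted p = 0.782, edgeR), below the control range of 967 to 1517 CPM in every AZA library. Mcm7, a subunit of the replicative helicase on chromosome 5, was at 22.95 and 19.7 CPM in B6 and 32.3 and 49.1 CPM in C5 (0.92 ± 0.26, adjusted p = 0.406). Of 15 stem cell genes Prom1 alone was called. Under AZA 9 of them were positive and 6 negative, with a median of 0.135 (control 0.068). The groups did not overlap for 5 that were higher and 3 that were lower in C5, beside 33.4% of all genes in either direction. Lgr5, the Wnt-amplifying receptor of crypt base stem cells, was at 13.0 and 23.8 CPM in B6 and 36.7 and 40.6 CPM in C5 under AZA, against 130 to 187 CPM in all controls (1.07 ± 0.26, adjusted p = 0.273). Smoc2, another crypt base gene, was at 64.7 and 52.9 CPM in B6 and 86.3 and 131 CPM in C5 (0.88 ± 0.25, adjusted p = 0.422).

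Enzymes of DNA methylation, among them the targets of the drug, were not called between strains, beside 0.134% of all genes called. With so few calls, a short list without a call does not show that the strains were alike. Of 15 tested writers, readers and erasers of DNA methylation 0 were called, with 11 positive, 4 negative and a median of 0.14. Dnmt1, the maintenance methyltransferase, was at 116 and 76.9 CPM in B6 and 115 and 143 CPM in C5 under AZA, below the control range of 190 to 280 CPM, with overlapping groups (0.42 ± 0.23, adjusted p = 0.92, edgeR). Uhrf1, which recruits Dnmt1 to newly copied DNA, was at 37.5 and 46.3 CPM in B6 and 37.8 and 65.5 CPM in C5. Dnmt3a and Dnmt3b, the de novo methyltransferases, overlapped between strains as well. Of 21 genes for uptake, activation, breakdown and efflux of nucleosides and drugs 0 were called, with a median of 0.15 (control 0.33). Apc itself, whose min allele all the organoids carry, was at 225 and 237 CPM in B6 and 292 and 234 CPM in C5 (0.19 ± 0.17, adjusted p = 0.999). Pla2g2a, a secreted phospholipase known as a modifier of Min tumour number, is annotated as a transcribed pseudogene in the C57BL/6J reference. It had no counts in control and was at 8.05 and 3.63 CPM in B6 and 3.04 and 5.02 CPM in C5 under AZA.

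The 18 AZA calls were set beside the same strain comparison in tissue, fitted apart on 39 libraries that the organoid fit did not use. Taken as the mean over wild-type mucosa, normal mucosa of APC min mice and adenoma, 2542 of 13657 genes were called between C5 and B6 (18.6%). Of the 18 genes, 17 had the same sign in tissue and 15 were also called there with that sign, with 0 called in the opposite direction. The tissue differences were 6.47 ± 0.19 for Bglap3 and 6.56 ± 0.36 for 1700023E05Rik, the largest of the 18, and −3.13 ± 0.47 for Steap1. In wild-type mucosa the mean of Bglap3 was 1.15 CPM in B6, 135.6 CPM in C5 and 0 CPM in PWD, the donor of chromosome 5. The high level in C5 was thus counted in neither parent strain, and its cause was not tested. PWD reads were aligned to a C57BL/6 reference and Bglap3 has near-identical copies, so its PWD value is uncertain. Arpc1b, Map4 and Pkd2 differed less in tissue, by 0.36 ± 0.13, 0.35 ± 0.12 and −0.66 ± 0.14. The 3 genes without a tissue call were Ide (−0.04, adjusted p = 0.828), Nipal1 (−0.07, adjusted p = 0.81) and Sult1d1 (0.19, adjusted p = 0.514; edgeR). Sult1d1 was −1.16 in wild-type mucosa (adjusted p = 0.0607) and 1.66 in adenoma, where it was called in the direction opposite to the organoids (adjusted p = 0.000794). Tissue holds stroma and immune cells that the organoids lack, and the sizes were not tested against each other.

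**Figure D5:**
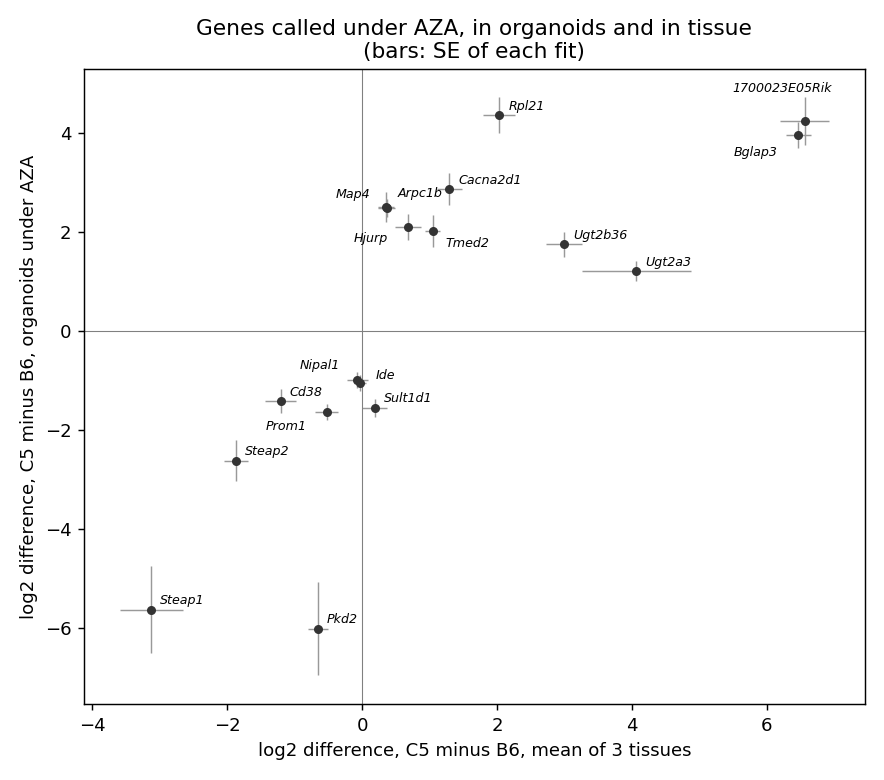
Fitted log2 difference between C5 and B6 with its SE for the 18 genes called under AZA, in tissue as the mean of 3 tissues (horizontal axis) and in AZA organoids (vertical axis). Apart from Sult1d1, the genes lie in the lower left or the upper right part; Nipal1 and Ide sit near 0 in tissue.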

How the data were processed

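RNA was depleted of ribosomal RNA with RiboMinus and sequenced as single reads on an Illumina instrument, per the labels' protocols. The authors deposited raw read counts per gene symbol. Per the submitters' processing notes, BWA, HTSeq and mm10 were used; versions, annotation and strand setting are not given in the sources used here, so genes that overlap or lie antisense cannot be told apart. The 5 summary categories (46.4 to 63.5% of an organoid library) were left out. Symbols were matched to RefSeq GRCm38.p6 for positions (22549 by symbol, 1352 by synonym, 161 unmatched).

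The 8 organoid libraries were fitted together, with 1 mean per group, in edgeR 4.0.16 (R 4.3.3; TMM; filterByExpr with minimum count 10 and minimum total 15; quasi-likelihood F-test; Benjamini-Hochberg over 13395 genes; called at 0.05). Tissue was fitted apart. CPM values are TMM-normalised, and fitted log2 differences carry an SE. The fit was tested on simulated data. Alternatives used DESeq2 1.42.0, limma 3.58.1, other scalings, filters and left-out libraries; leaving out Rpl, Rps and predicted genes was added after seeing the data. Where a group had 1 to 3 counts, the ratio of pooled counts is given with an exact 95% interval, and a count of 0 is bounded by a floor of 3 counts over the group; neither covers more than counting error, as no molecular identifiers were used.

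The compared libraries and the 32 gene lists were chosen with earlier results of these data known. Genes were named as the 6 largest rises and falls among called genes on chromosome 5 and elsewhere whose groups do not overlap and whose higher group averages 5 CPM or more, the 12 smallest interaction p-values, up to 5 genes called in 1 condition alone, up to 4 called or 2 most abundant members of each list, and 7 genes in any case. Genes outside this rule (Ugt2b34, Oas3, Gbp3, Spink4, Muc2, Mcm7, Smoc2, Commd8, Fam185a, Hmgb1, Hsd17b11, Lars2 and Podxl) were picked after their values were seen. A gene of the interferon list is counted in its totals and not reported here.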

Additional observations from a re-analysis of the deposited data

How the results depend on the processing

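Among the 18 genes called under AZA, 10 passed the threshold under every alternative tried and all 18 kept their direction. The AZA, control and shared counts were 18, 28 and 16; DESeq2 gave 59 and 47, with the 18 among its 59, and without a filter on low counts they were 110, 116 and 30, with 34 calls for the change of the difference. Leaving out single libraries gave 21 to 171 AZA calls, 22 to 139 control calls, 14 to 25 shared calls, 0 to 26 for the change and a median of −2.29 to −1.20 for interferon genes; the highest AZA counts were 171 without C5 replicate 3, of which 129 were lower in C5, 41 without B6 replicate 1 and 35 without C5 replicate 4, and the lone library is then assumed to vary like the other groups. Interferon genes called lower in C5 numbered 14 without C5 replicate 3 and 14 without the filter, 5 without B6 replicate 1, 2 with DESeq2, 2 (Irf7 and Oasl2) in limma with a random replicate block, and 0 without C5 replicate 4 or B6 replicate 2. A fit of the 4 AZA libraries alone called 12 genes, 10 of them among the 18.

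Same-numbered libraries of a strain did not deviate together (r of 0 and −0.012), so the numbers are not shown to pair samples. Each group holds only 2 libraries, so these r do not exclude a pairing either. The limma fit with a random replicate block called 22 AZA genes and 10 shared ones; of the 18 it called 14 and left out Steap1 (adjusted p = 0.557), Pkd2 (0.494), Steap2 (0.106) and Cd38 (0.0631). With a fixed replicate block edgeR called 21 changes of the difference, among them Bglap3 (adjusted p = 0.000555), Cdkn1a (0.000645), Slc47a1 (0.00823), Olfm4 (0.0103), Steap2 (0.013), Irf9 (0.0272), Xaf1 (0.0418), C530008M17Rik, Cyp3a11 and Lgr5.

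Directions changed for 5 uncalled genes when a library was left out: over the left-out libraries Oasl1 ranged from −1.0 to 0.881 and Dnmt3a from −0.221 to 0.228 (−0.0808 without B6 replicate 1), each lowest without C5 replicate 3, Uhrf1 ranged from −0.153 to 0.639 and Mbl2 from −0.129 to 0.59, each lowest without C5 replicate 4, and Pla2g2a was 0.136 without B6 replicate 1. The cause was not tested. With 2 libraries a side and 4389898 counts in the shallowest, genes of a few CPM were open to counting error.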
